A study of Bos taurus with 72 samples.

Results

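The genes described here are 150 genes whose transcripts were scarce in the blood of 6 cattle on arrival at a feedlot, relative to 16 other cattle of the same group. They were chosen from 12627 genes tested, of 24616 in the table. The choice kept the 9151 genes with a mean log2 CPM (CPM, counts scaled to a common library size with TMM, prior count 2) of at least 1 whose mean paired change from entry was under 0.7 at both later stages. Of these it took the 150 with the most negative difference at entry when the mean of the other animals was subtracted from that of the animals whose title number is above 100. The entry values and both mean changes from entry therefore chose the genes and are given as a description, with no test. The difference between both sets of animals at pulled and at close-out, and the change between those stages, were not used directly and are tested below. They are not independent of the choice, because the limits on the mean changes use the pulled and close-out values of all these animals. A gene that fell far after entry in the 16 animals could meet a limit only where the 6 animals rose.

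Whole blood of male beef cattle was collected in RNA-stabilising tubes and sequenced at 3 stages, which the labels call entry, pulled and close-out. The same 24 animals were sampled each time, which gave 72 libraries, and the title of the series concerns bovine respiratory disease. Each animal carries a number in the title of its library. The 6 animals with title numbers above 100 (animals 2 to 7) are compared with 16 of the 18 animals with title numbers up to 98. The labels attach no treatment, diagnosis, pen or date to these numbers, so the division is not a group set by the study. All animals share the tissue, the sex and the 3 stages. No healthy animals kept alongside them were analysed here, the labels give no age, and each animal is taken as 1 replicate.

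Animals 9 and 12 were left out of the choice. Over 100 genes whose differences between animals repeat from stage to stage, libraries of 1 animal correlated at 0.804 or more among the 22 animals kept. For animal 9 the library labelled pulled gave -0.115 against its own entry library and -0.144 against its own close-out library, but 0.979 against the entry library of animal 11. The counts of this last pair had a chi-square divided by its degrees of freedom of 1.46, and the next closest of 2556 pairs had 29.1. For animal 12 the library labelled pulled gave 0.0518 against its own entry library and 0.0464 against its own close-out library. Results at pulled are given with and without these libraries. Total counts ran from 8.24 M to 29.1 M reads per library (M for mega), with a median of 17.2 M.

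Blood RNA is a mixture of transcripts from neutrophils, lymphocytes, monocytes, platelets and immature red cells. A shift in the proportions of these cells moves many genes at once, and so does a shift in the activity of one cell type. In whole blood, fewer cells of a type and less RNA per cell cannot be told apart. Cattle arriving at a feedlot have been transported, mixed and moved to a new diet, and animals pulled from their pen are those singled out for examination. The deposited table gives Ensembl gene identifiers without names, and 0 of its identifiers matched the gene table at hand. The roles of the 150 genes, the levels of blood cell markers and the gene sequences are therefore not given, and only 4 identifiers are printed.

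The 150 genes were of modest abundance. Their mean log2 CPM over 66 libraries had a median of 2.89 and ran from 1.03 to 7.84, while the median of all genes tested was 3.84. In 109 of the 150 the mean lay below that median. At entry a member had a median of 37.5 reads in the libraries of the 6 animals and 284 reads in those of the 16 animals. At pulled the medians were 162 reads in the 6 and 79 reads in the 16, and at close-out 136 reads in the 6 and 107 reads in the 16. A count of 0 was met in 1 of 900 values of the 6 animals and in 1 of 2400 values of the 16 animals at entry, and in no value at the later stages. The members were thus detected in nearly every library, and their low entry values rest on counted reads.

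ENSBTAG00000007330 had the most negative entry difference. In the 6 animals its log2 CPM at entry was lowest at -1.50, had a median of 0.35 and was highest at 1.19, which came from 3 to 27 reads per library. In the 16 animals its entry values ran from 1.57 over a median of 3.86 to 5.05, from 32 to 838 reads. No value of the 6 animals reached the lowest of the 16. At pulled the order was the other way: the 6 animals ran from 1.38 over a median of 3.68 to 5.00, and the 16 animals from 0.54 over 1.99 to 3.61. At close-out the 6 animals ran from 1.29 over 2.93 to 3.52, and the 16 animals from -0.36 over 1.77 to 4.60. Both sets overlapped at the later stages.

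ENSBTAG00000012828 was second in rank and had only 4 to 9 reads per library in the 6 animals at entry, against 16 to 437 reads in the 16 animals. Its log2 CPM in the 6 animals ran from -1.21 over a median of -0.86 to -0.36, and in the 16 animals from 0.62 over 2.96 to 4.18. Again no value was shared between the sets. At pulled its median was 2.29 in the 6 animals and 0.87 in the 16 animals, and at close-out 1.96 in the 6 and 0.56 in the 16. The ranges overlapped at both later stages.

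**Figure D1:**
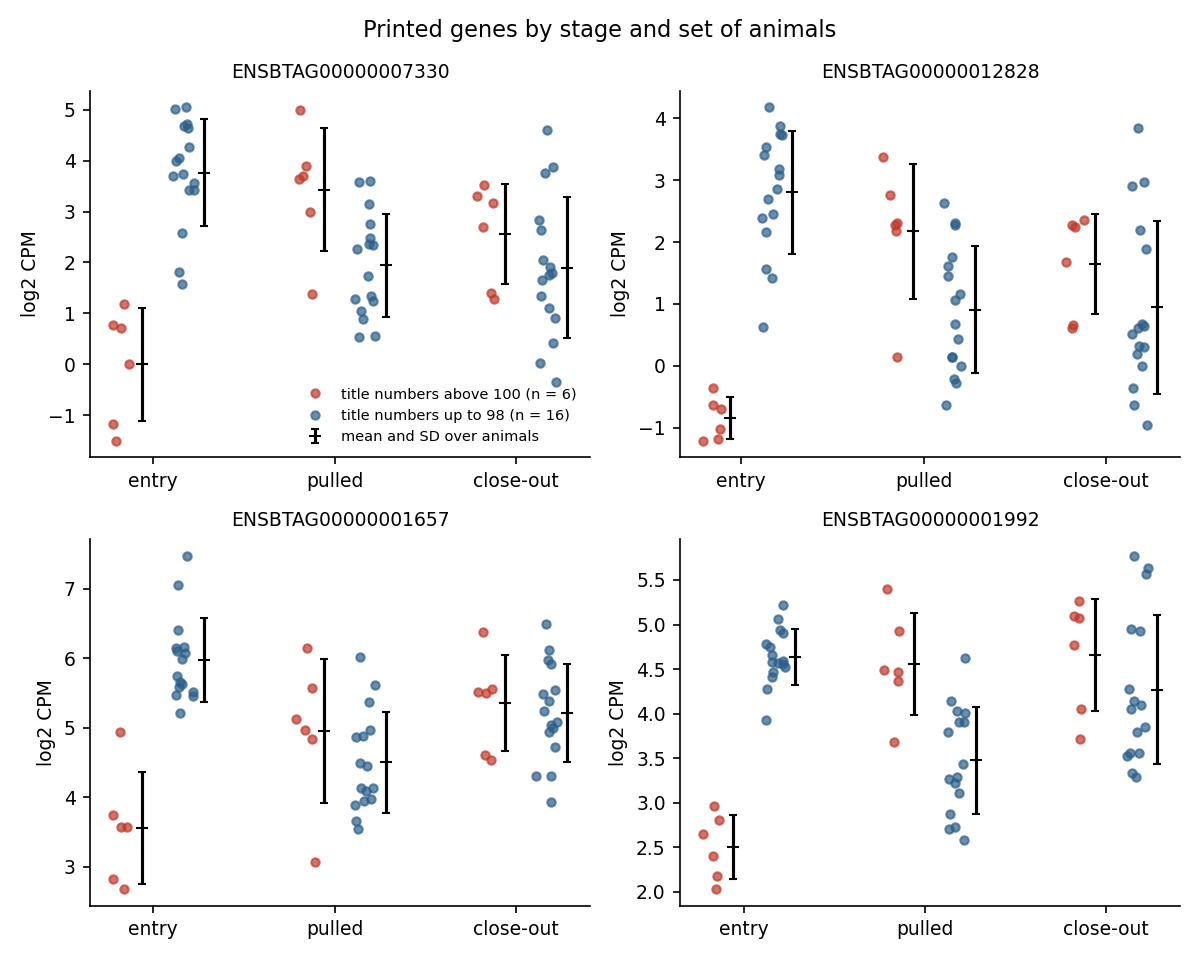
Log2 CPM of the 4 printed genes in each of 66 libraries by stage, with the 6 animals with title numbers above 100 in red to the left of the 16 others in blue; black bars are the mean and SD over animals. In ENSBTAG00000007330 the 6 animals reach at most 1.19 at entry, below the lowest of the 16 at 1.57, and both sets overlap at pulled and close-out.

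Over all 150 genes the entry difference between the 6 and the 16 animals had a median of -2.35 on the log2 scale, a ratio of 0.196, and ran from -3.77 to -2.10. The median over all genes tested was -0.08. In 123 of the 150 every one of the 6 animals lay below every one of the 16, as in 15.7% of all genes tested, while in 10.1% of all genes the 6 lay above. In edgeR 37.9% of all genes were lower in the 6 animals at entry. These values chose the genes and nothing is read from them. The 27 others had at least 1 overlapping pair of animals. The last 3 genes taken had entry differences of -2.1016, -2.0997 and -2.0995, and the first 3 not taken had -2.0994, -2.0973 and -2.0972, so no gap separated members from the next genes. In all, 690 genes lay below the last member at entry: 181 of them had too low a level, and 360 had the level but went past the limit on the mean change. With no limit on the mean changes, only 24 of the 150 would have been chosen. Of those past the limit 282 were lower at pulled than at entry by more than it allows. Many members lay close to that limit: in 59 of the 150 the mean pulled minus entry was below -0.6.

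The summed picture per animal is given by the median log2 CPM of the 150 genes in each library. At entry this level ran from 0.67 to 2.00 in the 6 animals, with a mean of 1.41 ± 0.545 (SD, n = 6), and from 2.83 to 4.65 in the 16 animals, with a mean of 3.86 ± 0.567 (SD, n = 16). At pulled it was 3.32 ± 0.816 in the 6 animals (1.95 to 4.46) and 2.40 ± 0.634 in the 16 (1.58 to 3.50). At close-out it was 3.01 ± 0.599 in the 6 animals (2.20 to 3.57) and 2.65 ± 0.877 in the 16 (1.36 to 4.42). The sets were apart at entry and overlapped at both later stages.

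**Figure D2:**
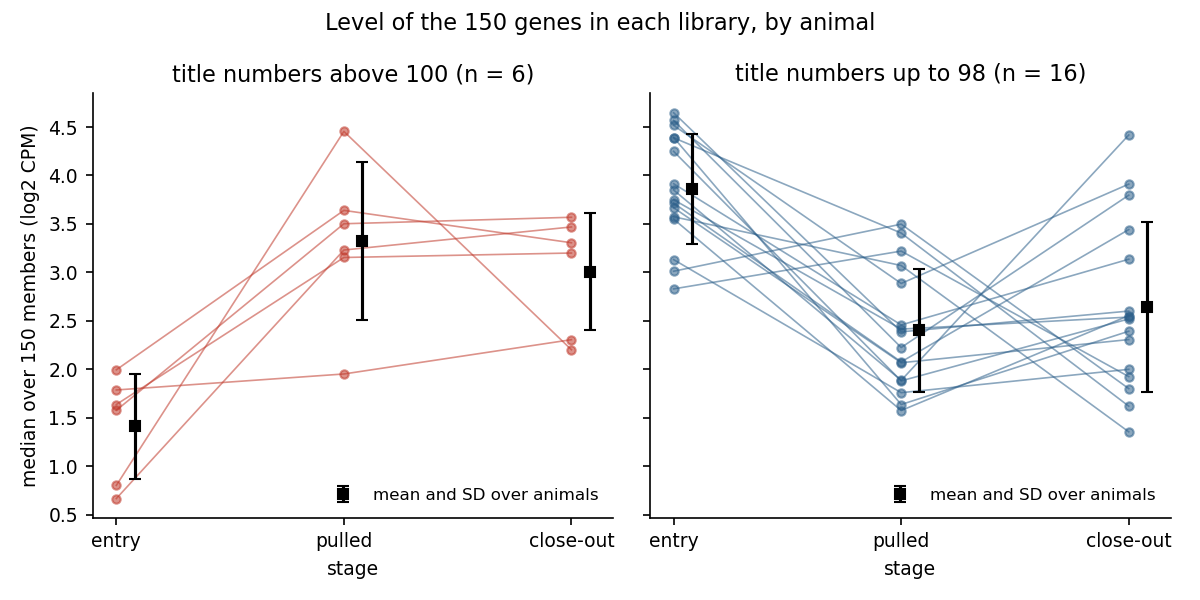
Median log2 CPM of the 150 genes in each library across the 3 stages, 1 line per animal, with the 6 animals with title numbers above 100 on the left and the 16 others on the right; black squares are the mean and SD over animals. At entry the 6 lie between 0.67 and 2.00 and the 16 between 2.83 and 4.65, and both sets overlap later.

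The animals moved in opposite directions after entry, as a description, since the entry values chose the genes. In the 6 animals the level was higher at pulled than at entry by 1.91 ± 1.16 (SD, n = 6) and higher in each of them, by 0.16 in the smallest case. At close-out it was higher than at entry by 1.60 ± 0.761 (SD, n = 6), again in 6 of 6. In the 16 animals the level was lower at pulled than at entry by a mean difference of -1.46 ± 0.927 (SD, n = 16), in 14 of them. At close-out their mean difference from entry was -1.22 ± 0.816 (SD, n = 16), lower in 15 of 16. Gene by gene, the mean of the 6 animals was higher at pulled than at entry in 150 of 150 genes, and the mean of the 16 was lower in 150 of 150. In 99 genes the value was higher at pulled in each of the 6 animals, as in 13.6% of all genes tested, and in 17 genes it was lower in each of the 16, as in 8.45% of all genes. The rule used these contrasts and nothing is read from the counts.

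Animals 9 and 12 give entry libraries that the choice did not use. Both have title numbers up to 98. On a scale of all 72 libraries the level of the 150 genes at entry was 3.39 in animal 9 and 3.96 in animal 12, against 0.66 to 2.03 in the 6 animals and 2.85 to 4.63 in the 16. In animal 9, 143 of the 150 genes lay above all 6 animals at entry, and in animal 12, 146 did. Both entry libraries therefore fell within the range of the 16 animals. At close-out their levels were 3.73 and 3.11, inside the range of the 16. The library labelled pulled of animal 9 had a level of 4.64, close to the highest entry level of the 16 at 4.63, and above all 16 animals at pulled, where the highest had 3.53.

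At pulled the 6 animals had the higher values in nearly all members. The difference of mean log2 CPM between the 6 and the 16 animals was above 0 in 148 of the 150 genes, with a median of 0.88, a ratio of 1.84, and a range from -0.83 to 1.49. Over all genes tested it was above 0 in 6765 of 12627, with a median of 0.03. The members varied together at pulled, as given below, so the 148 genes are not independent observations. In the edgeR fit 56 of the 150 genes, 37.3%, were higher in the 6 animals and 0 were lower (quasi-likelihood test, Benjamini-Hochberg adjusted p from 0.0312 to 0.0494). Over all genes tested 6.54% were called higher and 2.35% lower. The 56 genes had log2 fold changes from 0.80 to 1.90 with a median of 1.20, a ratio of 2.30. At an unadjusted p under 0.05, 123 of the 150 were higher and 0 lower, while 29.6% of all genes had such a p in either direction. With library totals in place of TMM scaling 75 members were higher, and the calls over all genes were 1253 higher and 91 lower, against 826 and 297 with TMM. The limits on the mean changes use the pulled values and can favour genes high in the 6 animals at pulled. When 150 genes were chosen with no such limit, 74 of them were called higher at pulled and 0 lower. Their median difference at pulled was 1.105. That list shares only 24 genes with the members and was ranked on the same entry values. It therefore cannot show what the limits did to the 150 genes, and their effect was not tested.

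A high value at pulled was not a trait of the 150 genes alone. Of the 4783 genes called lower at entry in the 6 animals, 15.5% were called higher at pulled and 0.188% lower. Among the 4633 of them that are not members the share called higher was 14.7%. The members were taken from the far end of that list. Whether their share differs from that of the rest was not tested. No member separated the sets at pulled: in 0 of the 150 did all 6 animals lie above all 16, as in 0.00792% of all genes, and in 0 did all 6 lie below, as in 0.0158%. In 23 genes all 6 animals lay above the median of the 16, and in 121 genes 5 of them did. The animal below that median was animal 4 in 119 of those 121. The share of all genes with such a pattern is not given here. The members varied together, so these counts describe the 6 libraries and are not separate results of single genes. The level of animal 4 at pulled was 1.95, the lowest of the 6, and that of animal 3 was 4.46, the highest.

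The call at pulled rested on single libraries and on the tool. In limma-voom 0 of the 150 were called, with 119 higher at an unadjusted p under 0.05 and a smallest adjusted p of 0.0622, whereas DESeq2 called 83 higher. With all 24 animals edgeR called 0, with 49 higher at an unadjusted p under 0.05. It also called 0 with animal 9 alone put back, and 33 with animal 12 put back. Both the fit with all 24 animals and the fit with animal 9 include its library labelled pulled. That library correlated at 0.979 with the entry library of animal 11, as given above. The count was 0 without animals 3, 5, 6 or 10, and 120 without animal 4. Without animal 19 it was 106 and without animal 20 it was 93. It was 15 without animal 15, 19 without animals 1, 14 or 17, 20 without animal 18 and 25 without animal 16. Without animals 22, 24, 11 and 8, each left out alone, it was 27, 30, 33 and 36. No member was called lower in any of these fits. The calls over all genes changed along with these counts. They were 0 higher and 0 lower in limma-voom, with all 24 animals, with animal 9 put back and without animals 3, 5, 6 or 10. Without animal 4 they were 2011 higher and 1111 lower, and in DESeq2 1155 higher and 653 lower. When single animals were left out, the median difference of mean log2 CPM over the members ran from 0.64 without animal 3 to 1.16 without animal 4.

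**Figure D3:**
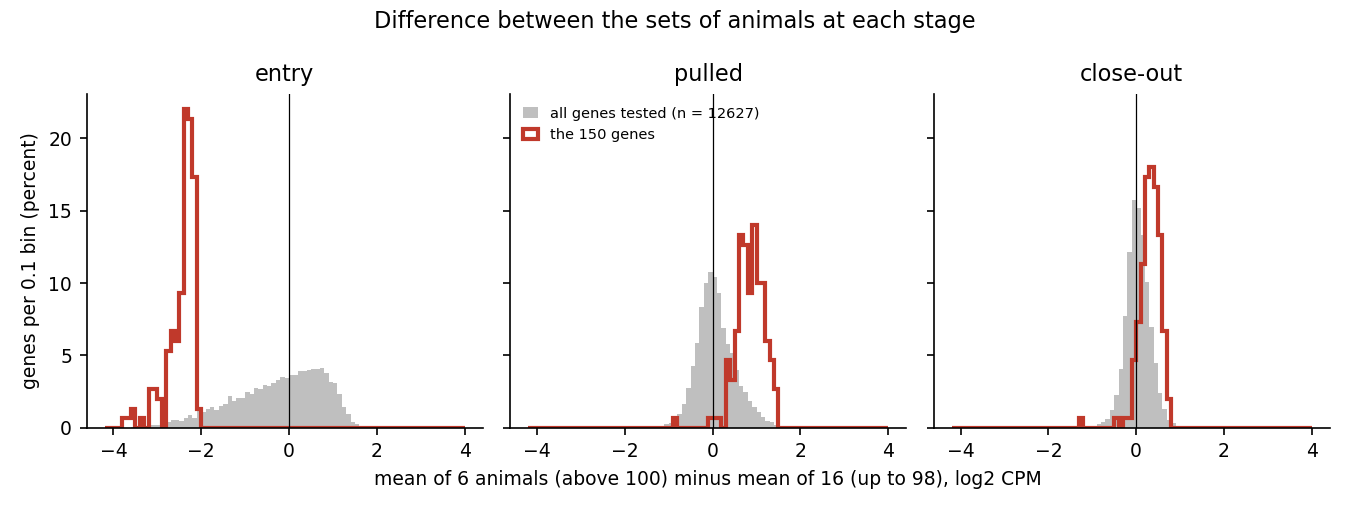
Distribution over genes of the difference in mean log2 CPM at each stage, as the 6 animals (title numbers above 100) minus the 16 others, in percent of genes per bin of 0.1, for the 150 genes (red) and for all 12627 genes tested (grey). The median of the 150 is -2.35 at entry, where it chose them, 0.88 at pulled and 0.33 at close-out.

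Of the printed genes 2 passed at pulled. ENSBTAG00000007330 was higher in the 6 animals by 1.52 on a log2 scale, with an SE of 0.443 and an adjusted p of 0.0395 in edgeR. This call was lost under 17 alternatives and kept under 14, with adjusted p from 0.00968 to 0.22 when single animals were left out. ENSBTAG00000001992, rank 142 of the 150, was higher by 1.07 with an SE of 0.259 and an adjusted p of 0.0312 in edgeR, a call lost under 7 alternatives and kept under 24. Its log2 CPM at pulled ran from 3.69 over a median of 4.48 to 5.40 in the 6 animals, and from 2.58 over 3.36 to 4.62 in the 16. ENSBTAG00000012828, with 1.22 and an SE of 0.444, missed the threshold (adjusted p of 0.074 in edgeR). It passed under 3 alternatives, without animal 4, 19 or 20, with adjusted p from 0.0212 to 0.283 when single animals were left out. The threshold was also missed by ENSBTAG00000001657, with 0.52 and an SE of 0.351 (adjusted p of 0.333 in edgeR).

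The members with the most negative entry differences were also high at pulled in the 6 animals. In the 12 lowest, with entry differences from -3.77 to -3.05, the differences at pulled ran from 0.61 to 1.49 and 7 were called higher. Their levels were modest, with mean log2 CPM from 1.40 to 3.88. The 5 members of highest level, with mean log2 CPM from 6.34 to 7.84, had entry differences from -2.45 to -2.11 and differences at pulled from 0.59 to 1.08, and 0 of them were called in edgeR (adjusted p under 0.05). The share called higher at pulled was 37.3% over the 150 genes and 6.54% over all genes tested. Whether the calls at pulled go with the entry difference or with the level was not tested.

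At close-out no member passed the test between the sets. The difference between the 6 and the 16 animals had a median of 0.33, a ratio of 1.25, ran from -1.29 to 0.73 and was above 0 in 139 of 150 genes. The log2 fold changes fitted by edgeR had a median of 0.17 and were above 0 in 122. Over all genes tested the difference was above 0 in 6933 of 12627, with a median of 0.03, and the fitted median was 0.008. The members varied together at close-out as well, so these counts are not over independent genes. In edgeR 0 members were called higher and 0 lower, with 1 higher at an unadjusted p under 0.05, and limma-voom and DESeq2 also called 0. Over all genes 0.0396% were called higher and 0% lower in edgeR. The median SD of a member at close-out was 0.593 over the 6 animals and 0.891 over the 16, and at entry it was 0.659 over the 6 and 0.598 over the 16. ENSBTAG00000007330 gave 0.26 at close-out in edgeR, with an SE of 0.579 and an adjusted p of 0.921.

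Close-out was then compared with pulled within the same animals. In edgeR with the animal as a block 4 of the 150 genes rose and 0 fell, while 16.4% of all genes were called higher and 14.5% lower. The members' share of 2.67% was below that background. The limits of the choice bound how far a member's mean can lie from entry at either stage, so large changes between both were kept out by the choice. The median log2 fold change of the members was 0.11, from -0.34 to 0.64, and that of all genes was 0.02. With library totals in place of TMM scaling 7 members rose, and the calls over all genes were 3243 higher and 904 lower, against 2067 and 1828 with TMM.

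ENSBTAG00000001657, rank 52, changed most. At close-out its log2 CPM ran from 4.54 over a median of 5.51 to 6.39 in the 6 animals and from 3.93 over 5.17 to 6.50 in the 16. At pulled it ran from 3.07 over 5.05 to 6.15 in the 6 animals and from 3.54 over 4.29 to 6.02 in the 16. In edgeR it rose by 0.64 on a log2 scale, with an SE of 0.229 and an adjusted p of 0.0365, and was higher at close-out in 16 of 22 animals. The call was kept under 16 alternatives and lost under 16, and those that lost it include a fit without the block (adjusted p = 0.0523) and one with all 24 animals (adjusted p = 0.0622). ENSBTAG00000001992 rose by 0.62, with an SE of 0.211 and an adjusted p of 0.028 in edgeR, and was higher in 17 of 22 animals. Its close-out median was 4.92 in the 6 animals and 4.07 in the 16, and its pulled median 4.48 in the 6 and 3.36 in the 16. That call was lost under 4 alternatives and kept under 28. ENSBTAG00000007330 and ENSBTAG00000012828 missed the threshold at -0.21 and -0.11 (adjusted p of 0.722 and 0.863 in edgeR). The second turned to 0.02 with library totals only and without the block.

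The count of 4 was 10 without animal 3 or 23, 9 without animal 13 and 7 without animal 20. It was 0 without animal 8 and 2 without animals 1, 10, 14, 15, 21, 22 or 24, each left out alone. With all 24 animals it was 2, with animal 9 put back it was 1, and in DESeq2 it was 7. Over all genes 3382 to 4298 were called when single animals were left out. Whether the change from pulled to close-out differed between the sets was tested directly. The level of the 150 genes changed by -0.31 ± 0.978 in the 6 animals (SD, n = 6) and by 0.24 ± 1.27 in the 16 (SD, n = 16). No member passed the test of that difference in edgeR, limma-voom or DESeq2, with 0 at an unadjusted p under 0.05 in edgeR, where 1.92% of all genes had such a p and 0% passed the adjusted one. The median of the log2 difference was -0.56 over the members and close to 0 over all genes.

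The 150 genes varied together across animals at the later stages. The entry stage chose the genes for a shared difference, so pulled and close-out are given here. The first principal component of the members over the 22 animals held 80.7% of their variance at pulled and 84% at close-out, against 37.1% and 42.6% for the 9151 genes from which they were taken. Over the 22 animals the median correlation of a pair of members was 0.842 at pulled and 0.886 at close-out, and 99.2% and 100% of pairs were positive. Over the 9151 genes from which the members were taken the median pair correlation was -0.0048 at pulled and -0.0000136 at close-out, with 49.6% and 50% of pairs positive. The members were all chosen for 1 direction of the entry difference, while the 9151 genes include both directions. Positive and negative pairs cancel in the median of the 9151, so it is no like-for-like background for the members. The share of the first principal component is none either, since the members were chosen for a large shared difference at entry. Other genes low at entry in the 6 animals were not compared in this way. Within the 6 animals alone the median among members was 0.866 at pulled and 0.878 at close-out, and within the 16 alone it was 0.808 and 0.906. These correlations are descriptions over animals that share a stage and a scaling. The labels used here name no batch of library preparation.

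**Figure D4:**
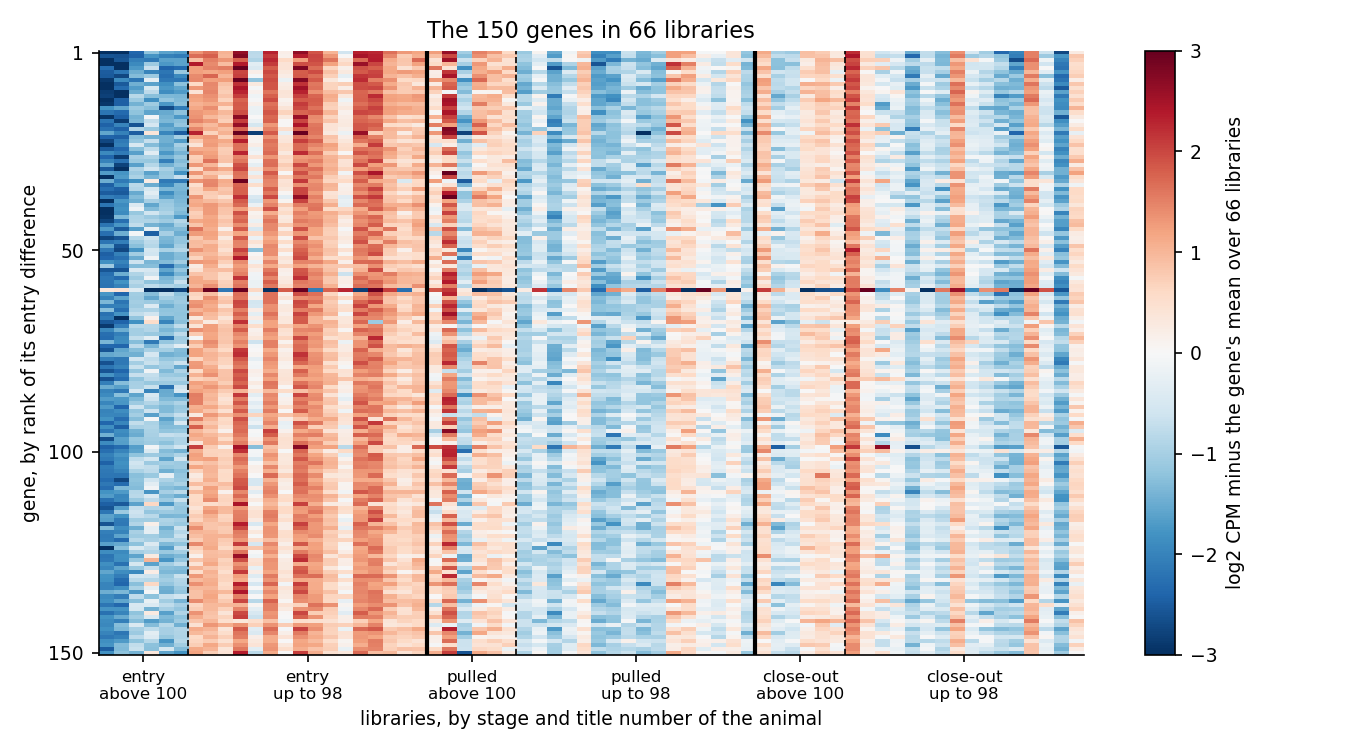
Log2 CPM of the 150 genes (rows, by rank of the entry difference) in 66 libraries (columns, by stage and then by title number above 100 or up to 98), each row centred on its mean, with colours ending at 3 either way. Whole columns are red or blue: a library is high or low for nearly all members at once, and 148 of the 150 correlate at 0.8 or more with the median of the others. The entry columns, which chose the genes, are part of that correlation.

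Of the 150 genes, 148 correlated at 0.8 or more over the 66 libraries with the median of the other members, with a median of 0.949. The libraries include 3 per animal, so these points are not independent. They also include the entry libraries, whose shared difference chose the genes, so part of this correlation follows from the choice. One exception was the gene of rank 60, at 0.224, singled out after its values were seen. It was the scarcest member, with a mean log2 CPM of 1.03. Its mean difference between the 6 and the 16 animals was -2.39 (entry), -0.83 (pulled) and -1.29 (close-out), and neither later difference passed (edgeR adjusted p = 0.755 and 0.683). Its differences between the 22 animals repeated from stage to stage, with correlations of 0.915 between entry and pulled, 0.958 between entry and close-out and 0.957 between pulled and close-out. The 6 animals were split at entry. Relative to the gene's mean over the 66 libraries, animals 2, 3 and 4 had 0.33, 0.42 and -0.39 on the log2 scale. Animals 5, 6 and 7 had -4.15, -3.55 and -2.75. Of the 16, animals 10, 14, 17, 20 and 23 lay from -4.15 to -2.09 and the rest at 0.58 or more.

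Over the 22 animals 1 of the 150 genes, that of rank 60, had a correlation above 0.5 in each pair of stages. Of the 9151 genes 591 had one between entry and pulled, 778 between entry and close-out and 1113 between pulled and close-out. The median over the members was -0.496 between entry and pulled, -0.103 between pulled and close-out and 0.0056 between entry and close-out, where the entry values carry the choice of the genes. Within the 16 animals the medians were -0.13 between entry and pulled, 0.429 between entry and close-out and -0.338 between pulled and close-out. For the 9151 genes the members were taken from, the same medians within the 16 animals were 0.078, 0.308 and 0.0538. Between entry and close-out 36 of the 150 members had a correlation above 0.5 within the 16 animals, and 1762 of the 9151 genes did. Animal 1 is an example: at entry its level was 3.85, at pulled it was 1.89 and at close-out it was 4.42. Animal 19 had 3.01, 3.50 and 1.80 at the same stages.

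The level of the 150 genes also followed the main axis of all other genes. The first principal component of the genes that are not members correlated with it at 0.99 over the 66 libraries. With all genes the correlation over the 22 animals of a stage was 0.998 (entry), 0.995 (pulled) and 0.993 (close-out). This axis differed by library within each set as well as between them: at close-out its scores in the genes that are not members ran from -31.7 to 30.6 in the 6 animals and from -65.4 to 75.3 in the 16. By the rule for likeness, the 3 genes most like ENSBTAG00000007330 correlated with it at 0.978, 0.975 and 0.974 over the 66 libraries. One of the 3 is a member. Another had an entry difference of -3.13 and was kept out by its mean change of -0.80 from entry to close-out, and the last had an entry difference of -1.97, outside the rank of 150.

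Some library measures differed between the sets. The TMM factor, which corrects for the make-up of a library, was 0.821 ± 0.102 in the 6 animals (SD, n = 6) and 1.12 ± 0.0775 in the 16 at entry (SD, n = 16). At pulled it was 1.02 ± 0.118 in the 6 and 0.927 ± 0.0787 in the 16, and at close-out 1.12 ± 0.074 in the 6 and 1.01 ± 0.158 in the 16. The set with the higher level of the 150 genes thus had the higher factor at each stage. The number of genes with a count was 14913 ± 213 in the 6 and 15575 ± 342 in the 16 at entry, 15096 ± 298 in the 6 and 15076 ± 352 in the 16 at pulled, and 15372 ± 207 in the 6 and 15317 ± 283 in the 16 at close-out. The 10 most abundant genes held 8.44% ± 1.17 of counts in the 6 and 7.45% ± 0.711 in the 16 at entry, 6.54% ± 1.41 in the 6 and 7.81% ± 1.08 in the 16 at pulled, and 6.79% ± 0.783 in the 6 and 8.08% ± 1.63 in the 16 at close-out. Median totals were 17.1 M in the 6 and 20.9 M in the 16 at entry, 15.8 M in the 6 and 17.8 M in the 16 at pulled, and 16.3 M in the 6 and 17.0 M in the 16 at close-out. The part of these measures in the level of the members was not tested.

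**Figure D5:**
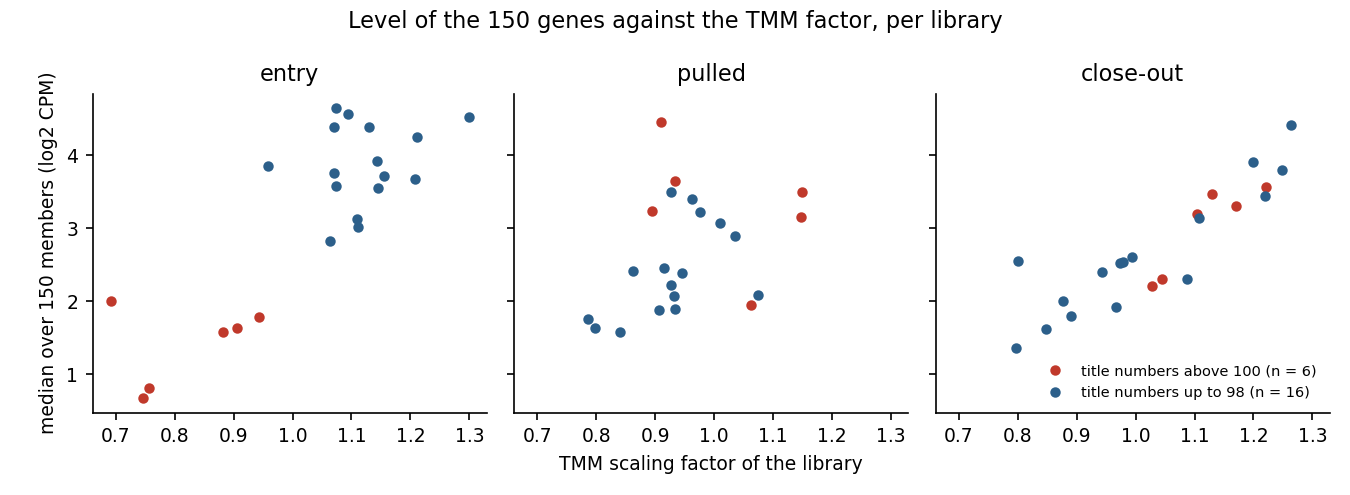
Median log2 CPM of the 150 genes against the TMM scaling factor, 1 point per library, with the 6 animals with title numbers above 100 in red and the 16 others in blue. At entry the 6 have factors of 0.691 to 0.943 and levels up to 2.00, and the 16 have factors of 0.958 to 1.30 and levels from 2.83.

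The scaling itself shifted the comparison without turning its sign. With library totals only the median difference over all genes between the 6 and the 16 animals was -0.51 (entry), 0.16 (pulled) and 0.18 (close-out), against -0.08, 0.03 and 0.03 with TMM. The median of the 150 members with library totals was -2.77, 1.00 and 0.48. The entry difference chose the genes, so its sign under either scaling is a description only. Relative to all genes the members' median was higher in the 6 animals at pulled and close-out under either scaling. At close-out 0 members were called under either scaling. There the edgeR fit with library totals gave a median log2 fold change of 0.22 over the members and 0.14 over all genes.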

How the data were processed

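The authors deposited 1 table of raw read counts, with Ensembl genes in lines and libraries in columns. TopHat2, HTSeq and the build UMD3.1 are named, per the submitters' processing notes; neither version, annotation nor strand setting is given in the sources used here. Overlapping or near-identical genes cannot be told apart. Counts were analysed in R 4.3.3 with edgeR 4.0.16 (filter by stage, TMM, quasi-likelihood test, Benjamini-Hochberg over all genes at 0.05), on 66 libraries of 22 animals. Sets were compared within 1 stage. Close-out minus pulled had the animal as a block, paired by the animal number in the labels; across genes, the deviations of 1 animal at both stages correlated at a median of 0.39 over the 22 animals, from -0.262 to 0.779, and over 0.1 in 14. SEs are the log2 fold change divided by the root of F. The edgeR fits of the set difference at pulled and of close-out minus pulled were run on simulated counts with known changes. The other tests and the choice of the genes were not run on such counts. Alternatives were RLE scaling, library totals, DESeq2 1.42.0, limma-voom (limma 3.58.1), other filters, all 24 animals, no block and leaving out each animal; putting back animal 9 or 12 alone was added after seeing the data. Printed genes are the 2 lowest at entry by rank and the 2 largest called changes in close-out minus pulled. The 22 gene lists written by symbol were not used, as no names were paired. The genes, the division of the animals and the lists were chosen with earlier results of these data known. For the sets at 1 stage, p-values weigh a difference against the spread between animals. With the animal as a block, they weigh it against the spread of the change from animal to animal. Columns that matched no sample numbered 0.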

Additional observations from a re-analysis of the deposited data

Results flagged for a closer look

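In ENSBTAG00000012828 at pulled, 1 of the 6 animals with title numbers above 100 stood apart: animal 4 had a log2 CPM of 0.15, against 2.18 in the nearest of the other 5. The gap was 0.627 of the whole range of the 6, past the critical value of 0.625. Chance flags about 1 in 20 groups, and 27 groups were looked at.

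In 12 of the 150 genes the value was higher at pulled than at entry in each of the 6 animals and lower in each of the 16 animals, as in 2.38% of all genes tested. For close-out against entry this held in 9 of the 150, and in 1.27% of all genes. The entry values chose the genes, and the difference between the sets in these changes was not tested.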

How the results depend on the processing

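Of the 150 genes, 78 were chosen again with library totals only, 96 with all 24 animals and 24 with no limit on the mean changes, and 44 to 114 when 1 of the 6 animals was left out; at least 121 were with RLE scaling, other prior counts or medians. Members called higher at pulled numbered 56 in the edgeR fit, 0 in limma-voom, 23 with no filter on low counts, 0 with all 24 animals, 0 with animal 9 kept, 33 with animal 12 kept and 0 to 120 without single animals. All genes called at pulled numbered 1808 in DESeq2, 0 in limma-voom, 440 with no filter, 0 with all 24 animals, 0 with animal 9 kept and 0 to 3122 without single animals. At close-out the calls over all genes were 5, and 2 with RLE scaling, 0 with library totals, 48 in DESeq2, 2 with no filter, 2 with at least 1 CPM in 6 libraries, 3 with animal 12 kept and 0 to 24 without single animals. Members higher at close-out than at pulled numbered 7 with library totals, 7 in DESeq2, 2 with all 24 animals, 1 with animal 9 kept, 3 without the replicate block and 0 to 10 without single animals. The median entry difference was -2.98 when the genes were chosen with no limit. For ENSBTAG00000012828 close-out minus pulled turned to 0.02 (0.0215 with library totals, 0.0233 without the replicate block), and ran from -0.27 to 0.035 without single animals. Its set difference at close-out ran from -0.0044 to 0.56 without single animals, and that of ENSBTAG00000001657 from -0.16 to 0.25. None of these 3 values passed the test. The cause of these shifts was not tested, except that fewer samples or more genes tested follow from the setting itself. The block changed no other call of a printed gene except that of ENSBTAG00000001657. Depth limits the entry values of the printed genes of rank 1 and 2, with 3 to 27 and 4 to 9 reads per library in the 6 animals.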
